A study of Homo sapiens with 12 samples.

Results

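The late response of the BHLHE40 knockdown line was compared with its early response: 2 arrays of LM BHLHE40-KD cells at 48 h were set against 2 arrays of the same line at 6 h, 4 of the 12 arrays of the series. The members were taken from the source labels of the samples, and the arrays of the 2 times were paired by the slide number in their titles. LM cells derive from MDA-MB-231, a triple-negative human breast cancer cell line with mesenchymal traits, and were enriched for growth in the lung. The LM BHLHE40-KD cells carried 1 lentiviral short hairpin RNA against BHLHE40 under puromycin selection, so that the line stands for 1 hairpin. The LM-EV control cells carried the empty vector and came from pooled drug-resistant colonies. In both lines cells were harvested untreated (0 h), or after 6 h or 48 h in hypoxia (1% oxygen) with low glucose (1 mg/ml in the labels), with 2 arrays per group. The methods mention only the oxygen level for the arrays, so the part of glucose and that of oxygen cannot be told apart. Each of 2 slides held all 6 groups once, and a slide is taken here as 1 of the 2 experiments, which the labels do not state. The methods speak of 2 independent experiments, but nothing in the labels says whether replicates came from separate cultures. The p-values measure only the spread between these arrays, which may be technical. In such bulk RNA, fewer cells of a kind and less RNA per cell cannot be told apart.

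BHLHE40 is a basic helix-loop-helix factor that binds E-box elements and is itself induced by the hypoxia-inducible factors (HIF). It was described earlier as a repressor, and the paper proposes that it activates HBEGF by keeping histone deacetylases from DNA. Low oxygen stabilizes HIF proteins within hours, while shortage of glucose and protein folding stress act through the kinases of the integrated stress response and its effector ATF4, and through mTORC1. Many cytokine and immediate early genes answer such stress with a burst that fades, whereas matrix genes, growth programs and interferon-stimulated genes often change over days.

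Levels are the normalized signal of the authors, in arbitrary linear units. On the 4 arrays 20298 to 21744 probes were detected, with signals starting at 42.7 to 51.8 units, depending on the array. Signals of different genes come from different probes and are not compared with each other, except in the marker check below. A sum over markers there is weighted towards the brightest probes. BHLHE40 had 3198 and 3585 signal units at 48 h and 3410 and 4324 at 6 h in the knockdown line, with 1771 and 1444 at 0 h. In LM-EV the same probe gave 3365 and 6482 at 48 h, 4283 and 6795 at 6 h and 2992 and 2716 at 0 h. The mean was lower in the knockdown line at each time, and within each slide the knockdown array was the lower one. Across slides, single arrays of the lines overlapped at 6 h and 48 h. Late against early, BHLHE40 differed by -0.18 ± 0.29 (log2, SE) in the knockdown line, which did not pass the test (adjusted p = 0.784).

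The cell line was checked against cell type markers on the same 4 arrays. Of 13 basal and mesenchymal markers tested, VIM (vimentin) had 71327 and 67992 units at 48 h and 68982 and 70927 at 6 h, near the top of the scale, and CD44 and AXL were also high. SPARC was not detected on the 4 arrays. The summed signal of the 13 was 322482 and 283834 at 48 h and 328949 and 318423 at 6 h. Of these markers, 10 had a lower mean at 48 h and 2 a higher one, with a median of -0.07. Only 1 of them passed the test, S100A4, which was lower at 48 h (-1.90, log2). Of 16 luminal markers 12 were tested, among them EPCAM and KRT19, while ESR1, PGR, CDH1 and TFF1 were not detected on both arrays of any group. The summed signal of the 12 was 63357 and 58529 at 48 h and 51711 and 45723 at 6 h. KRT19, which rose by 0.91 (log2), made up a large part of that sum. Of the 12 markers, 8 had a lower mean at 48 h and 4 a higher one, with a median of -0.20. Of the leukocyte markers on the array only CD14, CD68 and CD79A were tested, and PTPRC, CD3E and NKG7 were not detected on both arrays of any group. The summed signal of these 3 leukocyte markers, nearly all of it CD68, a lysosomal protein of many cells, was 25298 and 21073 at 48 h and 17641 and 16112 at 6 h. The 7 fibroblast markers tested summed to 327 and 352 units at 48 h and 445 and 524 at 6 h, and the 3 endothelial ones to 2783 and 3167 at 48 h and 2684 and 2583 at 6 h. Their part in the results was not tested.

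Late against early, 135 of 12336 genes tested were higher at 48 h in the knockdown line (1.09% of all) and 103 were lower (0.835%), at a Benjamini-Hochberg adjusted p under 0.05 in a limma fit of all 6 groups with the slide as a block. The genes lower at 48 h included IL6, which had the largest fold, other inflammatory mediators, stress genes such as GDF15 and DDIT4, 5 interferon-stimulated genes and S100A4. Those higher at 48 h included the collagenase MMP1, the matrix gene COL8A1 and the ribosome biogenesis genes URB2, RRS1 and UTP14A. A second measure asked for a 1.5-fold step the same way in both experiments. It was met by 493 higher and 423 lower genes, 7.43% of all, and by 226 of the 238 genes past the limma threshold, which rest on the same arrays. The smallest change past that threshold was 0.57 on the log2 scale, and 38 genes lay just inside it (adjusted p of 0.045 to 0.05) and 67 just outside (0.05 to 0.055).

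The calls rest on few arrays. When one array of the comparison was left out, the number of these 238 genes that still passed was 5 without slide 1 at 48 h, 7 without slide 2 at 48 h, 3 without slide 1 at 6 h and 40 without slide 2 at 6 h. IL6 was the only gene that passed all 4 times (adjusted p of 0.0327 to 0.0487), whereas all 238 kept their sign. The 238 genes were chosen for their change on these same arrays, so a kept sign is no separate evidence. In a fit of the 4 arrays alone no gene passed in either direction. At an unadjusted p under 0.05 in limma, 871 were higher and 753 lower. An exact permutation test of 2 against 2 arrays cannot go below 0.333.

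**Figure D1:**
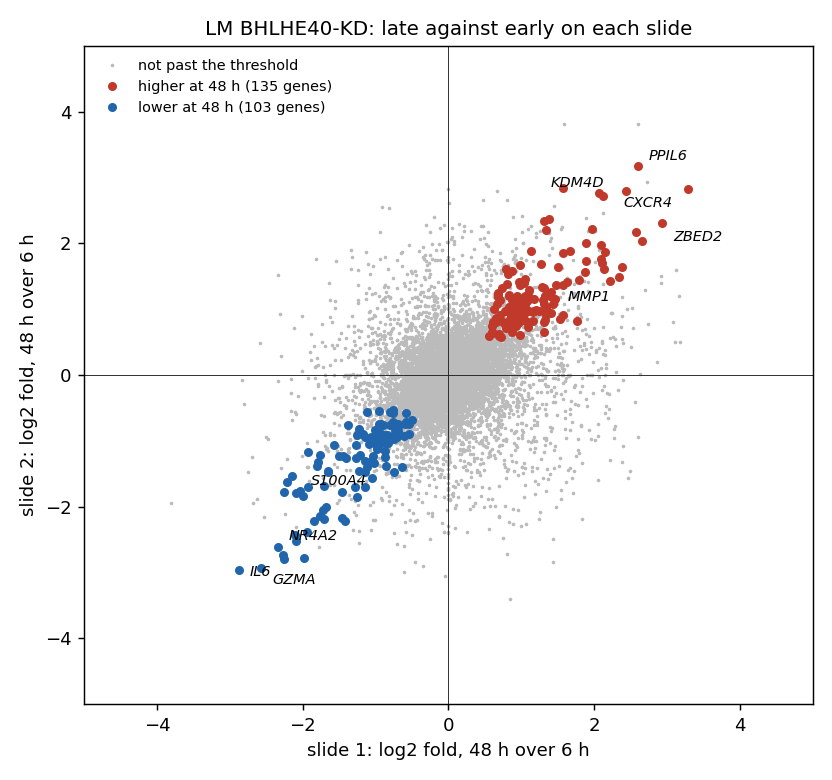
Log2 fold of 48 h over 6 h in LM BHLHE40-KD on slide 1 (horizontal) against slide 2 (vertical), 1 point per gene tested; red points were higher and blue points lower at 48 h past the limma threshold, grey points did not pass. The 135 higher and 103 lower genes, which were chosen on these arrays, moved the same way on both slides. Over all genes the 2 slides correlated at 0.32.

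The plot of the 2 slides shows how far the experiments matched gene by gene. Across all 12336 genes, which are not independent replicates, Pearson's r between the slides was 0.32. Of the 238 genes 64 had a mean under 200 units in the group where they were higher, a share of 31.1% among those higher at 48 h and 21.4% among those lower, against 24.8% of all genes tested. Many of the largest folds came from such dim probes. Of the genes higher at 48 h, 31 were not detected on both arrays at 6 h, and of those lower, 16 were not detected on both arrays at 48 h. For a gene that was undetected on both arrays of a group, a bound is given in place of a fold: the mean of the brighter group over the lowest detected signal of the arrays of the dimmer one, or over its own signal where that is higher.

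The 0 h arrays of the knockdown line show what kind of change lay behind the difference. Levels at 6 h and 48 h were each set against 0 h in steps of 1.5-fold. These comparisons share the 6 h or the 48 h arrays with the one that chose the genes, so the counts describe the genes and are not tested. Of the 103 genes lower at 48 h, 60 (58.3%) were within 1.5-fold of the 0 h level at 6 h and under it at 48 h, so that they were lost late. Another 20 (19.4%) were above 0 h at 6 h and back within 1.5-fold at 48 h, and 15 stayed within 1.5-fold of 0 h at both times. Of the 135 genes higher at 48 h, 63 (46.7%) were under 0 h at 6 h and back within 1.5-fold of it at 48 h, and 41 (30.4%) were near 0 h at 6 h and above it at 48 h. Over all genes tested, 5.46% showed the late loss, 3.77% the early peak, 5.89% the early dip and 4.77% the late gain.

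Several secreted inflammatory factors had an early peak. IL6, a cytokine of the acute phase, had 1879 and 1941 units at 48 h against 13843 and 15158 at 6 h, and 3464 and 2977 at 0 h. Both late arrays were below both early and both untreated ones, and the change was -2.92 ± 0.19 (log2, SE, adjusted p = 0.00753), or -0.75 against 0 h, which did not pass (adjusted p = 0.065). CCL20, a chemokine for CCR6-bearing leukocytes, had 454 and 496 units at 48 h and 1637 and 2301 at 6 h, with 371 and 395 at 0 h. It fell by 2.03 (SE 0.22, adjusted p = 0.0151) to close to its untreated level. IL11, a cytokine of the IL6 family, had 810 and 785 units at 48 h and 3084 and 2548 at 6 h, with 1058 and 808 at 0 h. The early arrays stood above all others of the line, and the change was -1.81 ± 0.24 (adjusted p = 0.0216). PTGS2, the inducible cyclooxygenase, kept part of its rise, with 6923 and 6129 units at 48 h and 11186 and 10550 at 6 h against 4309 and 3496 at 0 h. Its adjusted p of 0.04997 lay just inside the threshold.

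CSF1, the macrophage growth factor, differed in shape. It had 285 and 256 units at 48 h and 684 and 616 at 6 h, with 539 and 813 at 0 h, so that the early level was within the untreated range and the late one was below it (-1.27 ± 0.23, adjusted p = 0.0446). Of the list of NF-kB feedback and inflammatory cytokine genes, 26 were tested, 5 fell (IL6, IL11, CCL20, CSF1 and PTGS2) and 0 rose, against the 0.835% and 1.09% of all genes, and the median was -0.36 against 0.00 over all genes. CXCL8, the neutrophil chemokine, had 36438 and 30283 units at 48 h and 59789 and 61960 at 6 h, and did not pass (-0.87 ± 0.18, adjusted p = 0.0569). Its early signals were near the top of the scale.

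Of 22 AP-1, EGR and NR4A immediate early genes tested 2 fell and 0 rose (0.835% and 1.09% of all genes). In the list 15 had a lower mean and 7 a higher one (49.4% and 50.2% of all genes). NR4A2, an orphan nuclear receptor, had 160 and 255 units at 48 h and 810 and 1556 at 6 h, with 190 and 252 at 0 h. Its late arrays spanned the untreated ones, and the change was -2.47 ± 0.20 (adjusted p = 0.00864). ATF3, a stress-induced factor of the ATF/CREB family, had 479 and 727 units at 48 h and 857 and 1362 at 6 h, with 374 and 472 at 0 h (-0.87 ± 0.14, adjusted p = 0.0314). The late signals lay between the untreated and the early ones. EGR1, a zinc finger factor of the same class, ran the other way, with 1113 and 1151 units at 48 h, 596 and 889 at 6 h and 436 and 475 at 0 h, but did not pass (0.64 ± 0.16, adjusted p = 0.0808). MXD1, a partner of MAX that opposes MYC, had 822 and 786 units at 48 h and 1505 and 1870 at 6 h, with 869 and 865 at 0 h (-1.06 ± 0.20, adjusted p = 0.048).

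**Figure D2:**
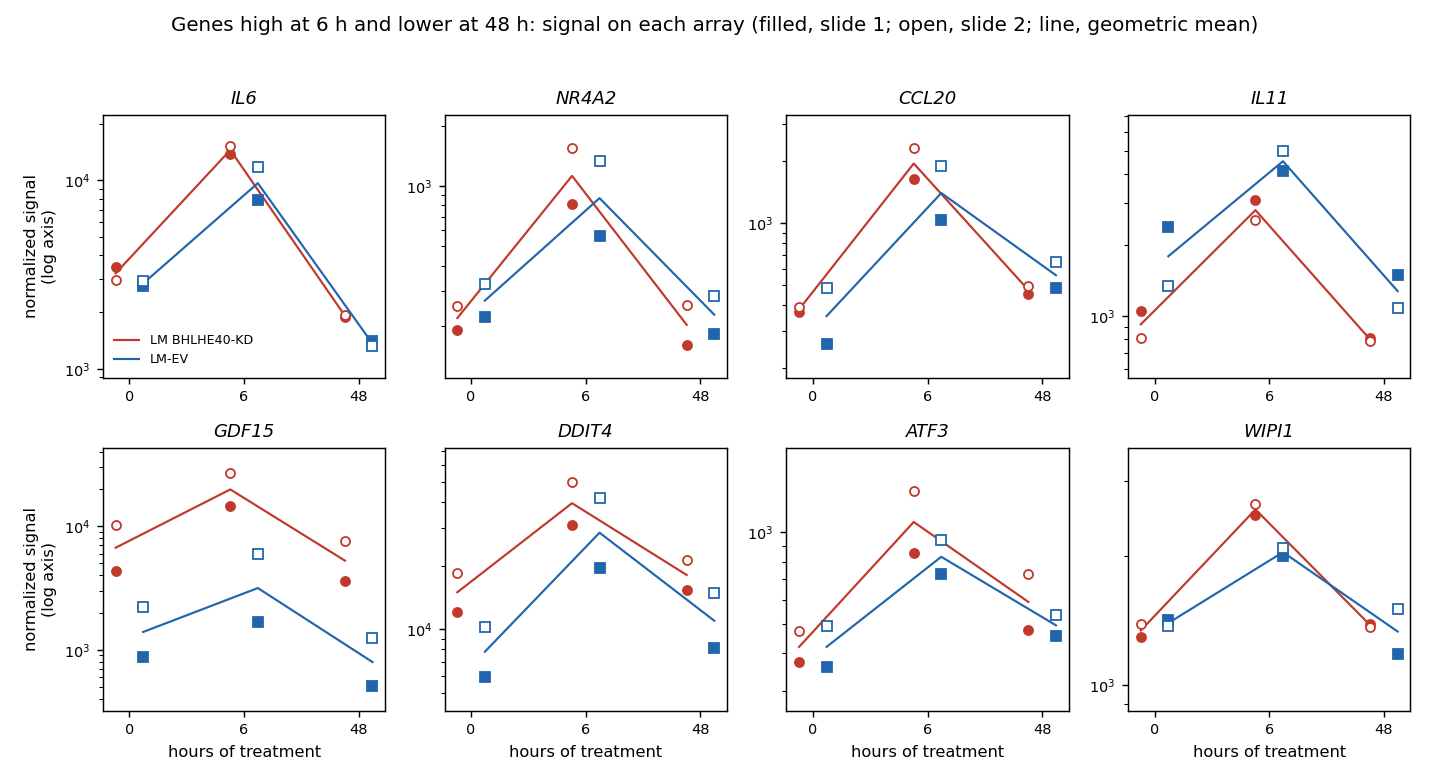
Normalized signal (log axis) of 8 genes at 0, 6 and 48 h (evenly spaced steps, not to scale in time), LM BHLHE40-KD in red and LM-EV in blue; points are single arrays (filled slide 1, open slide 2) and lines join geometric means. In the knockdown line all 8 genes had their highest mean at 6 h, and IL6 had 1879 and 1941 units at 48 h against 13843 and 15158 at 6 h.

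The plot of the early peaks shows these genes with 4 of the stress and nutrient response. GDF15, a stress-induced cytokine, had 3628 and 7626 units at 48 h and 14516 and 27111 at 6 h, with 4342 and 10315 at 0 h. Slide 2 was higher at each time, and within each slide the late array was below the early one (-1.92 ± 0.21, adjusted p = 0.0151). DDIT4 (REDD1), an inhibitor of mTORC1 induced by hypoxia and by energy stress, had 15247 and 21374 units at 48 h and 31275 and 50011 at 6 h, with 12086 and 18490 at 0 h. It fell by 1.13 (SE 0.16, adjusted p = 0.0254) and was the only member past the threshold among 12 genes of glucose sensing and mTORC1 inhibition, whose median was -0.46. The shares over all genes were 0.835% lower and 1.09% higher. WIPI1, a phosphoinositide-binding protein of autophagosome formation, had 1390 and 1368 units at 48 h and 2497 and 2644 at 6 h, with 1292 and 1389 at 0 h (-0.90 ± 0.13, adjusted p = 0.0258).

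Of 37 ATF4 targets and genes of amino acid synthesis and uptake tested 4 fell, namely DDIT4, SLC7A5, ATF3 and CEBPB, and 0 rose (0.835% and 1.09% of all genes). The mean was lower at 48 h for all 37, against 49.4% of all genes, with a median of -0.49. SLC7A5, a transporter of large neutral amino acids, had 3909 and 4244 units at 48 h and 7071 and 8639 at 6 h, with 6045 and 8593 at 0 h (-0.94 ± 0.17, adjusted p = 0.0456). This was a late loss below the untreated level rather than the end of a peak. CEBPB, a bZIP factor that pairs with ATF4, had 21604 and 21535 units at 48 h and 32227 and 35423 at 6 h, with 22471 and 27936 at 0 h (-0.65 ± 0.12, adjusted p = 0.049). DDIT3 (CHOP), CTH and TRIB3 had values of -0.51, -1.22 and -1.02 and adjusted p of 0.0572, 0.0613 and 0.088. Among 21 endoplasmic reticulum chaperones and XBP1 targets 0 rose and 0 fell (1.09% and 0.835% of all genes), and the median was -0.08.

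Autophagy and lysosome genes had a lower mean at 48 h in 28 of 34 cases, against 49.4% of all genes, with a median of -0.33. Past the threshold 1 gene of the list fell (WIPI1) and 0 rose (0.835% and 1.09% of all genes). MAP1LC3B and NEU1 were at -0.63 each, with adjusted p of 0.0676 and 0.0711. Of 18 NRF2 antioxidant genes 1 fell and 0 rose (0.835% and 1.09% of all genes). NQO1, a quinone reductase, had 3264 and 2908 units at 48 h and 5940 and 6437 at 6 h, with 7126 and 6618 at 0 h (-1.01 ± 0.16, adjusted p = 0.0305), and its late arrays were below all others of the line. Genes of the mitochondrial respiratory chain had a lower mean at 48 h in 43 of 47 cases, against 49.4% of all genes. The change was small: the median was -0.18, and 0 of 47 passed. The mitochondrial ribosome showed no such lean, with 24 of 48 means lower and 24 higher.

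Of 41 interferon-stimulated genes tested 5 fell and 0 rose (0.835% and 1.09% of all genes), 33 had a lower mean (49.4% of all genes), and the median was -0.39. Against 0 h, with which these comparisons share arrays, the median of the list was -0.40 at 6 h and -0.81 at 48 h, so that part of the distance from 0 h was there at 6 h. IFIT1, a sensor of viral RNA ends, had 894 and 1065 units at 48 h and 3952 and 3079 at 6 h, with 4072 and 2910 at 0 h (-1.84 ± 0.27, adjusted p = 0.0258). The untreated and early arrays overlapped, and both late arrays were far below them. ISG15, a ubiquitin-like modifier, had 4784 and 5972 units at 48 h and 16186 and 13826 at 6 h, with 13615 and 16415 at 0 h (-1.48 ± 0.22, adjusted p = 0.0265). OASL had 283 and 298 units at 48 h and 885 and 829 at 6 h, against 1549 and 1480 at 0 h, so that it stepped down at both times (-1.56 ± 0.25, adjusted p = 0.035). OAS2, a synthase of the second messenger that activates RNase L, was not detected at 48 h (40.6 and 46.8) and had 137 and 206 units at 6 h, at least 3.57-fold lower late (adjusted p = 0.0454). BST2 (tetherin) had 171 and 266 units at 48 h and 303 and 526 at 6 h (-0.90 ± 0.16, adjusted p = 0.0452). IFIT2 and IFIT3 were at -1.33 and -0.93 and did not pass (adjusted p = 0.0572 and 0.0801). None of 17 genes of class I antigen presentation passed.

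Further named genes were near their 0 h level at 6 h and below it at 48 h. S100A4, a calcium-binding protein known for its link to metastasis, had 1855 and 2386 units at 48 h and 7626 and 8049 at 6 h, with 7621 and 7243 at 0 h. The early arrays matched the untreated ones, and the late ones were lower (-1.90 ± 0.14, adjusted p = 0.00864). SPP1 (osteopontin), a secreted integrin ligand, had 357 and 188 units at 48 h and 1169 and 857 at 6 h, with 980 and 638 at 0 h (-1.95 ± 0.25, adjusted p = 0.0199). KYNU, an enzyme of tryptophan breakdown, had 5760 and 5234 units at 48 h and 11470 and 10010 at 6 h, with 9754 and 8201 at 0 h (-0.96 ± 0.14, adjusted p = 0.0249). THBS1, a matrix protein that restrains vessel growth, had 856 and 530 units at 48 h and 1552 and 1376 at 6 h, with 2390 and 1256 at 0 h (-1.12 ± 0.19, adjusted p = 0.0404). COL18A1, the source of endostatin, had 245 and 314 units at 48 h and 414 and 521 at 6 h (-0.74 ± 0.13, adjusted p = 0.0421).

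GZMA, a granule protease of cytotoxic lymphocytes, was among the largest falls, with 79.9 and 51.8 units at 48 h and 473 and 394 at 6 h, against 493 and 349 at 0 h (-2.75 ± 0.41, adjusted p = 0.0287). The lymphocyte genes CD3E and NKG7 were not detected on both arrays of any group. MAL2, a protein of apical transport, averaged 152 units at 48 h and 732 at 6 h (n = 2 each, -2.31 ± 0.39, adjusted p = 0.0402). For CGN (cingulin, of tight junctions), RAB26, TMT1A, CSGALNACT1, COLQ and CHI3L2 the late arrays were undetected and the early signals were 54.5 to 111 units, which gives bounds of at least 1.38-fold (CHI3L2) to at least 1.96-fold lower (TMT1A).

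Of 50 genes of ribosome assembly tested 3 rose and 0 fell (1.09% and 0.835% of all genes). All 3 had dipped at 6 h and were back within 1.5-fold of 0 h at 48 h. In the list 43 had a higher mean at 48 h against 50.2% of all genes, and the median was 0.29. URB2 had 1104 and 672 units at 48 h and 466 and 343 at 6 h, with 1163 and 752 at 0 h (1.11 ± 0.13, adjusted p = 0.0151). The late arrays were close to the untreated ones on each slide. RRS1, a factor of large subunit assembly, had 1268 and 1209 units at 48 h and 715 and 528 at 6 h, with 1441 and 955 at 0 h (1.01 ± 0.14, adjusted p = 0.0249). UTP14A, of the small subunit processome, had 1651 and 1480 units at 48 h and 905 and 719 at 6 h, with 1700 and 1611 at 0 h (0.96 ± 0.15, adjusted p = 0.0323). The 56 cytosolic ribosomal proteins had a median of 0.00 and 0 passed. MAT2A, which makes S-adenosylmethionine, had 8720 and 7078 units at 48 h, 5093 and 3103 at 6 h and 15359 and 13792 at 0 h, so that the dip was made up in part, and did not pass (0.98 ± 0.20, adjusted p = 0.0572).

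Of 33 splicing genes tested 1 rose and 1 fell (1.09% and 0.835% of all genes), and the median was 0.06. SRSF6, an SR protein, had 17660 and 19866 units at 48 h and 11440 and 9897 at 6 h, with 20838 and 19051 at 0 h (0.82 ± 0.15, adjusted p = 0.0451). RBM39 did the opposite, with 1959 and 2666 units at 48 h and 4549 and 6213 at 6 h, against 2687 and 3180 at 0 h (-1.22 ± 0.22, adjusted p = 0.0447). PMEPA1, a target and inhibitor of TGF-beta signalling, had 610 and 553 units at 48 h and 251 and 219 at 6 h, with 460 and 455 at 0 h (1.31 ± 0.20, adjusted p = 0.0307). The ligands TGFB2 and TGFB3 were at -1.24 and -1.52 and did not pass (adjusted p = 0.054 and 0.0615). Of 20 ERK feedback regulators tested 1 rose, EPHA4 (0.82 ± 0.13, adjusted p = 0.0307), and 1 fell, ETV5 (-0.64 ± 0.12, adjusted p = 0.0459), against 1.09% and 0.835% of all genes. In that list 15 had a lower mean, against 49.4% of all genes, and the median was -0.22.

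Named genes that rose at 48 h included some of matrix, protease and secreted proteins. MMP1, the interstitial collagenase, had 40679 and 49157 units at 48 h and 14561 and 19051 at 6 h, with 15030 and 16455 at 0 h. The early arrays overlapped the untreated ones, and both late arrays were far above (1.42 ± 0.13, adjusted p = 0.00977). COL8A1, a short-chain collagen, had 9460 and 8649 units at 48 h and 4565 and 3762 at 6 h, with 3425 and 3258 at 0 h (1.13 ± 0.11, adjusted p = 0.0107). ADAMTS1, a secreted protease, had 1364 and 1066 units at 48 h and 548 and 611 at 6 h (1.06 ± 0.18, adjusted p = 0.0378), and the laminin chain LAMA4 117 and 129 units at 48 h and 52.4 and 66.2 at 6 h (1.06 ± 0.14, adjusted p = 0.0199). Of 32 collagens, laminins and other matrix genes 2 rose and 2 fell, and of 17 matrix proteases and inhibitors 2 rose and 0 fell, against 1.09% of all genes that rose and 0.835% that fell. EDN1 (endothelin 1), a vasoconstrictor peptide, had 2996 and 3866 units at 48 h and 1588 and 2118 at 6 h, with 2217 and 2580 at 0 h (0.89 ± 0.12, adjusted p = 0.0226). TNFSF12 (TWEAK) had 710 and 633 units at 48 h and 284 and 401 at 6 h (0.99 ± 0.17, adjusted p = 0.0404). KRT19, a keratin of simple epithelia, had 40488 and 35016 units at 48 h and 22277 and 17911 at 6 h (0.91 ± 0.17, adjusted p = 0.0456), while KRT8 and EPCAM were at -0.36 and -0.25 and did not pass (adjusted p = 0.276 and 0.341).

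**Figure D3:**
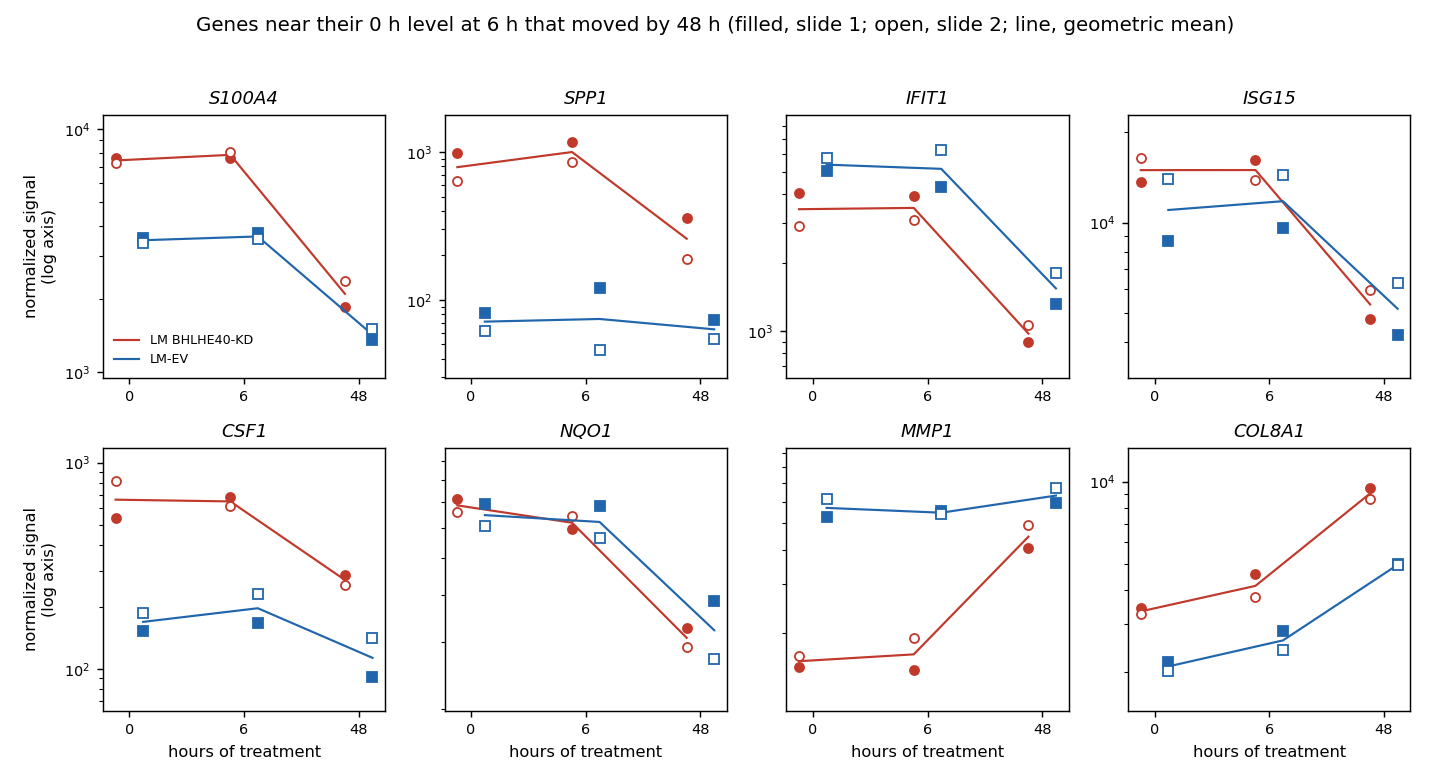
Normalized signal (log axis) of 8 genes at 0, 6 and 48 h (evenly spaced steps, not to scale in time), LM BHLHE40-KD in red and LM-EV in blue; points are single arrays (filled slide 1, open slide 2) and lines join geometric means. In the knockdown line S100A4 had 1855 and 2386 units at 48 h against 7626 and 8049 at 6 h, and MMP1 had 40679 and 49157 at 48 h against 14561 and 19051 at 6 h.

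Beside the plot of late changes, 4 further genes of strong signal were chosen after their values were seen. DKK1, a secreted inhibitor of Wnt receptors, had 32119 and 31275 units at 48 h and 17128 and 14772 at 6 h (0.99 ± 0.12, adjusted p = 0.0151). IL7R, a cytokine receptor chain, had 2447 and 2366 units at 48 h and 1159 and 1081 at 6 h (1.10 ± 0.11, adjusted p = 0.00977). KISS1, the kisspeptin precursor, had 3574 and 6696 units at 48 h and 1631 and 1805 at 6 h (1.51 ± 0.22, adjusted p = 0.0254). SAA1, an acute phase protein, ran the other way, with 1337 and 1688 units at 48 h and 3551 and 4059 at 6 h (-1.34 ± 0.15, adjusted p = 0.0151).

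Of the 12 largest rises by fold, 11 came from genes that were undetected on both arrays at 6 h, and ZBED2 from a gene detected on 1 of them. ZBED2, a zinc finger factor, had 341 and 435 units at 48 h and 44.4 and 87.3 at 6 h (2.63 ± 0.41, adjusted p = 0.0305) and was undetected on all LM-EV arrays. CXCR4, the receptor of the chemokine CXCL12, had 157 and 148 units at 48 h and was undetected at 6 h (6.15 and 20.9), at least 3.06-fold higher late (adjusted p = 0.0175). KDM4D, a histone H3 lysine 9 demethylase, and SHLD1, of the shieldin complex in DNA repair, had 87 and 111 and 114 and 71.9 units at 48 h, and both were undetected at 6 h and detected at 0 h. The bounds were at least 1.97-fold and at least 1.82-fold higher late. PPIL6, PLA2G4D, GABRB1, PIPOX, PSG4, EPB41L4B, MIR328 and FAM111B made up the rest, with bounds between 1.32-fold (MIR328) and 2.53-fold (PSG4). A further probe of GABRB1 moved the other way (-1.60), and the probe annotated to MIR328 does not measure the mature miRNA.

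**Figure D4:**
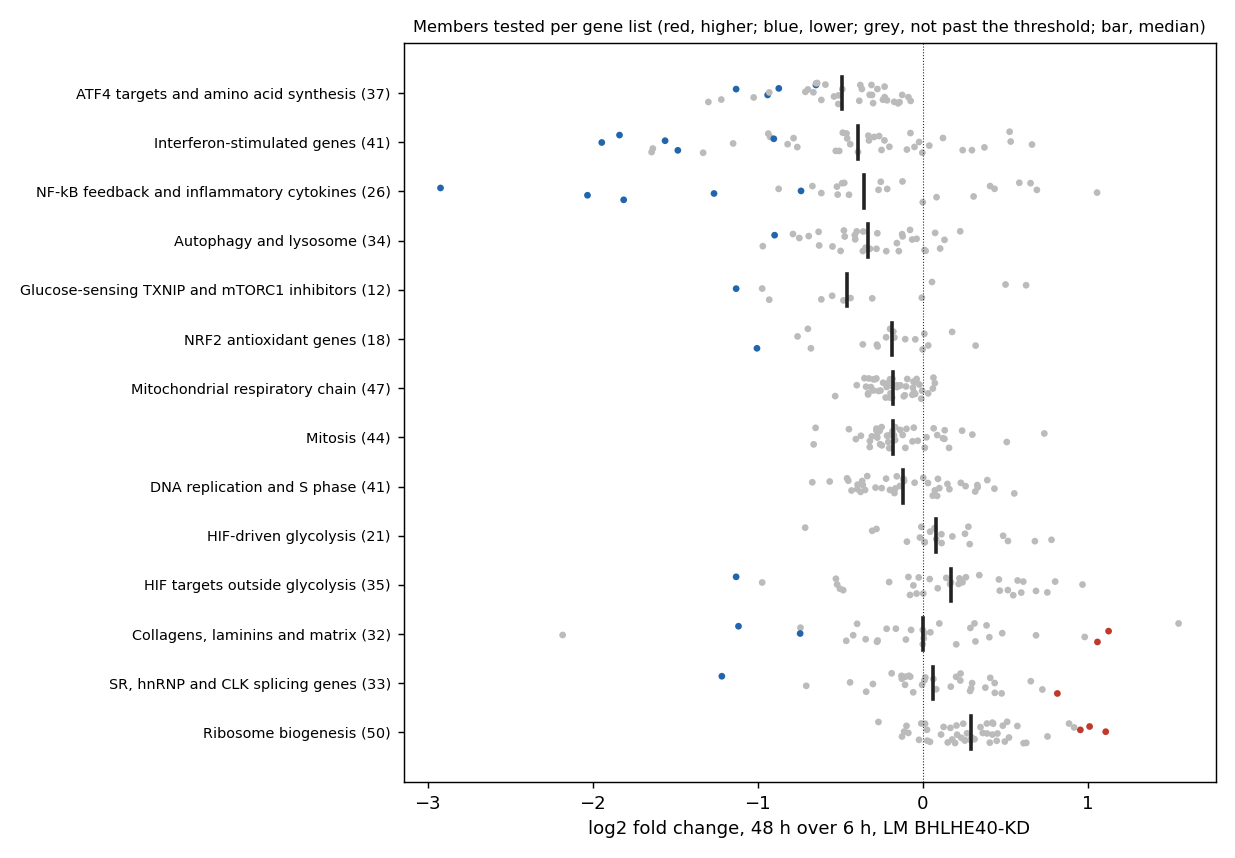
Log2 fold change of 48 h over 6 h in LM BHLHE40-KD (horizontal) for the tested members of 14 gene lists, 1 point per gene, with the number tested in brackets and a bar at the median; red points rose, blue points fell and grey points did not pass. The medians run from -0.49 for ATF4 targets to 0.29 for ribosome biogenesis.

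The plot of gene lists includes the core hypoxia program. Of 35 HIF targets outside glycolysis 0 rose and 1 fell (DDIT4), with a median of 0.17. Of 21 glycolytic HIF targets 0 passed in either direction, with a median of 0.08. The shares over all genes were 1.09% higher and 0.835% lower. BNIP3, a mitophagy receptor, had 41327 and 37667 units at 48 h and 20368 and 26843 at 6 h (0.75 ± 0.16, adjusted p = 0.0617). PGK1, a glycolytic kinase, had 34104 and 36868 units at 48 h and 27512 and 22338 at 6 h (0.52 ± 0.16, adjusted p = 0.122). The arrays of the 2 times did not overlap for either gene on the probe used, but neither change passed. A further probe of PGK1 had means of 6121 units at 48 h and 6017 at 6 h, a difference of 0.03. EPAS1 (HIF2A) fell, with 2350 and 2474 units at 48 h and 4786 and 4982 at 6 h, against 3750 and 3289 at 0 h (-1.02 ± 0.19, adjusted p = 0.0494), while HIF1A was at -0.73 ± 0.20 and did not pass (adjusted p = 0.0965). Of 41 replication genes and of 44 mitotic genes 0 passed, with medians of -0.12 and -0.18. Among all genes tested 1.09% rose and 0.835% fell, so that lists of this size would hold few calls at that share. HBEGF, an EGF receptor ligand at the centre of the study, had 4185 and 3104 units at 48 h and 5110 and 5666 at 6 h (-0.58 ± 0.17, adjusted p = 0.114). VEGFC, CCN2 and IL1A were at -0.26, -0.16 and -0.61 and did not pass (adjusted p of 0.32, 0.561 and 0.188).

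Among gene groups closer to the study, 27 of its cytokines and growth factors were tested. EDN1 and TNFSF12 rose, IL11 fell, and the median was -0.02. That list comes from the study of these same samples and is no independent evidence. Of 20 genes known from lung metastatic sublines MMP1 rose, PTGS2 and KYNU fell, and the median was -0.03. Of 17 circadian clock genes, a family to which BHLHE40 belongs, 0 rose and 0 fell. For each of these lists the shares over all genes were 1.09% higher and 0.835% lower.

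In LM-EV the same comparison called 13 genes higher (0.105%) and 15 lower (0.122%) at 48 h. Of the 238 genes called in the knockdown line 19 were called in LM-EV in the same direction, which is 19 of the 28 called there. A difference of late against early between the lines was tested as the interaction of time and line, and 0 of 12336 genes passed (0%, smallest adjusted p = 0.151, with 711 at an unadjusted p under 0.05 in limma). Of the 238 genes 106 had an unadjusted interaction p under 0.05. The interaction contains the comparison that chose these genes, so small values are favoured by the choice. The same holds for the interaction p-values of single called genes. That more genes passed in one line than in the other is therefore not shown to be a difference between the lines. The mean in LM-EV moved the same way for 89.6% of the genes higher and 90.3% of those lower in the knockdown line, against 68.9% of all genes, and the lines share the fit but no arrays of this comparison.

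**Figure D5:**
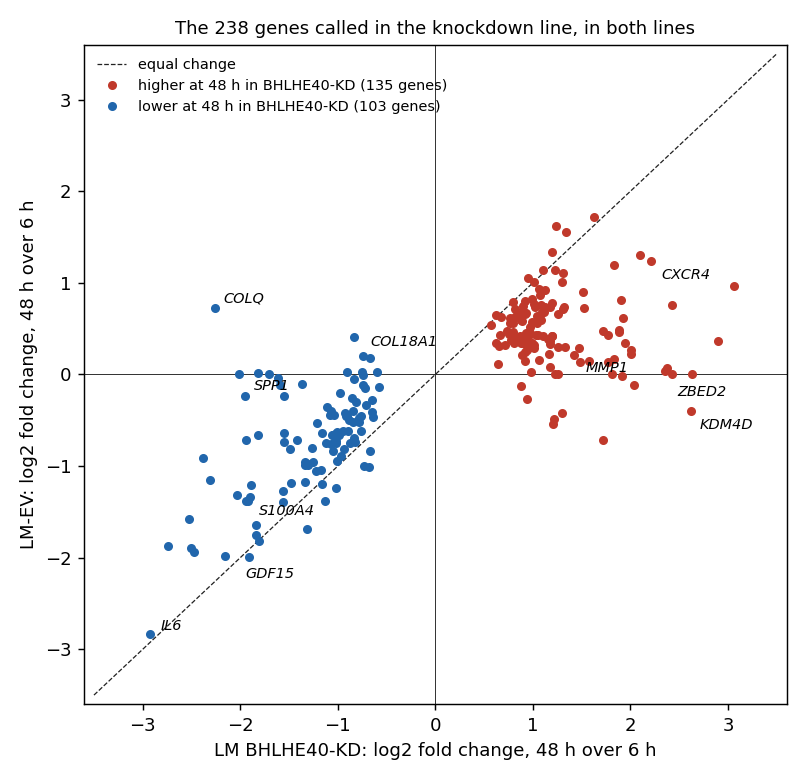
Log2 fold change of 48 h over 6 h in LM BHLHE40-KD (horizontal) against that in LM-EV (vertical) for the 238 genes called in the knockdown line. The dashed line marks equal change. Genes undetected in LM-EV at both times, COLQ and ZBED2 among them, are plotted too, and their vertical position rests on signals below detection. In the same plot equal change marks the diagonal. IL6 lies near that line at -2.92 and -2.83, while MMP1 changed by 1.42 in the knockdown line and by 0.21 in LM-EV, where its signals of 54091 to 67145 were near the top of the scale, so that the fold there may be compressed.

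In the plot of the 2 lines IL6 changed by -2.92 in LM BHLHE40-KD and by -2.83 in LM-EV, GDF15 by -1.92 and -1.99, IL11 by -1.81 and -1.82, and NR4A2 by -2.47 and -1.93. All 4 passed in both lines. MMP1 was near the top of the scale in LM-EV at each time, with 59406 and 67145 units at 48 h and 55318 and 54091 at 6 h, and did not pass there (0.21, adjusted p = 0.507). Its interaction was 1.22 with an unadjusted p of 0.000217, which did not pass (adjusted p = 0.19). BST2 was -0.90 in the knockdown line and 0.03 in LM-EV, COL18A1 -0.74 and 0.20, and PTGS2 -0.74 and -0.01. Their unadjusted interaction p were 0.00449, 0.00122 and 0.0072, and none passed. SPP1 was dim in LM-EV, with 73.1 and 54.7 units at 48 h and 121 and 45.5 at 6 h. ZBED2, PLA2G4D, PIPOX, CHI3L2, PPIL6, GABRB1, MIR328 and COLQ were undetected in LM-EV at both times, so that no fold is given there.

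As a description of sequence, RefSeq promoter windows (GRCh38.p14, 250 bases before to 50 after the start of the gene) were searched on both strands for CACGTG, the E-box that BHLHE40 is known to bind, and for ACGTG, the core of HIF sites, which is part of that E-box. A window was found for 9895 genes tested. CACGTG was in 7 of 96 windows of genes higher at 48 h (7.29%) and in 10 of 76 of those lower (13.2%), against 10.1% of all windows. ACGTG was in 22.9% and 22.4%, against 26.8% of all. Of 40 windows of called genes chosen for naming, 3 held CACGTG, and the 250 bases before their start are shown to place the E-box, in capitals: CGN (chr1:151511137-151511386, plus strand), SLC7A5 (chr16:87869508-87869757, minus strand) and UTP14A (chrX:129905914-129906163, plus strand).
CGN: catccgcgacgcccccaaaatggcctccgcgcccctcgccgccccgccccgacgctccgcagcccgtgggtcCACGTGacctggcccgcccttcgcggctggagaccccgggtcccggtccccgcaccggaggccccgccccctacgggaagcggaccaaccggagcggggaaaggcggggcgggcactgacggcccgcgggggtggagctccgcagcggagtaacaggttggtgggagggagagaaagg
SLC7A5: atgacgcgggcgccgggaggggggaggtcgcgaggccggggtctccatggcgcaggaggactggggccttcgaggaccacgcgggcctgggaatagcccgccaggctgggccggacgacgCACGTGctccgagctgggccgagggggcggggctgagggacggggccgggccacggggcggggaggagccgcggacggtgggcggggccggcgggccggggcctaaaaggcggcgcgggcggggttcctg
UTP14A: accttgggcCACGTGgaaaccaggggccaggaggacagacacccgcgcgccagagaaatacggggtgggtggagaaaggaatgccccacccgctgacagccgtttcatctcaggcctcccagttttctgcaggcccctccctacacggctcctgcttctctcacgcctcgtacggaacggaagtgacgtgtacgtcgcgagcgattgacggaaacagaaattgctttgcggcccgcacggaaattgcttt
CGN and SLC7A5 fell at 48 h and UTP14A rose. The 40 windows do not cover every called gene named here: MAL2, CSGALNACT1 and RRS1 are among those left out. The count of 3 therefore holds for these 40 windows only. A match is a run of letters and says nothing of binding.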

How the data were processed

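RNA of 12 samples was measured on Illumina HT-12 bead arrays. The authors deposited normalized intensities, background-subtracted and then quantile-normalized with GenomeStudio (version not given in the sources used here), and a table of bead signals with detection p-values; the authors' p-value compares a probe with negative control beads. Of the bead signal columns, 5 of slide 2 do not match the normalized values (rank correlations of 0.816 to 0.904, 3 of them identical to a column of slide 1), so those intensities were not used. Normalized values under 16 were set to 16 (38.7% of values) and log2 was taken. Probes with detection p under 0.05 on both arrays of at least 1 of 6 groups and 1 gene symbol in the platform annotation were kept, and the probe with the highest mean was used per gene (12336 genes). One limma model (version 3.58.1, R 4.3.3) took all 12 arrays, with a mean for each of 6 groups and a slide term. It had 5 residual degrees of freedom, to which limma's prior added 2.43. Fold changes are differences of mean log2 values at 48 h minus 6 h, with limma's standard error (SE). Same-slide deviations correlated between -0.02 and 0.28 over 15 pairs of groups, 13 of them over 0.1. For the pair compared here, the knockdown line at 48 h and 6 h, the value was only 0.05. Named are BHLHE40, the 12 largest rises and falls past the threshold, up to 6 called members of each list with up to 3 others of smallest p, and 6 genes of the study. Members and lists were chosen with earlier results of these data known. The procedure was tested on simulated data.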

Additional observations from a re-analysis of the deposited data

How the results depend on the processing

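Counts are given for higher and lower genes, and calls are limma's. In the knockdown line 135 and 103 genes passed. Without the slide term (no replicate block) 61 and 38 passed, with array quality weights 71 and 48, and with no filter on dim probes 75 and 64. With a floor of 64 there were 283 and 249, with 100 added to each signal 445 and 409, and with a stricter filter (all 12 arrays at a detection p below 0.01) 397 and 343. Only the 6 BHLHE40-KD arrays gave 0 and 0 (1032 and 903 at an unadjusted p under 0.05), and only the 4 arrays at 48 h and 6 h also 0 and 0 (871 and 753). Leaving out single arrays gave 1 to 118 and 3 to 89. For LM-EV, with 13 and 15 genes, the counts were 6 and 4 without the block, 24 and 36 with weights, 92 and 109 with the added constant, 80 and 94 with the stricter filter, and 23 lower with the floor of 64. Leaving out single arrays gave 0 to 5 in both directions. The interaction had 0 genes, 2 with no filter on dim probes, and 0 to 3 when single arrays were left out. By the 1.5-fold rule 493 and 423 genes passed, 323 higher with the floor of 64, 191 and 173 with the added constant, 221 and 205 with the stricter filter and 139 and 131 at a fold of 2. On single slides 1244 to 1493 and 1139 to 1405 passed. Repeated quantile normalization, median centring and the mean of probes kept each count of the knockdown line within 1.5 times. No called gene that the text names by its rule changed sign under any alternative that tested it. These genes were chosen on the same arrays, so a kept sign is no separate evidence. Of the 238 calls 99 remained without the block. The cause of these shifts was not tested. Signals under 42.7 to 51.8 units are not resolved, and 656 genes were at the floor on at least 1 of the 4 arrays.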
